A study of Mus musculus with 9 samples.

Results

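The genes described here are 35 genes of macroautophagy, 30 of the core machinery that builds the autophagosome and 5 receptors that carry cargo to it, picked by symbol from the 21951 genes of a count table. RNA was sequenced from BV2 cells, mouse microglia immortalised in culture, in 3 groups of 3 libraries. Triol-treated irradiated cells were exposed for 30 min to a steroid, 5α-androst-3β, 5α, 6β-triol at 10 µM, and then to 10 Gy of X-rays in 1 dose. Irradiated cells received vehicle, 20% HP-β-CD (hydroxypropyl-β-cyclodextrin), for 30 min before the same dose, and control cells received vehicle and no radiation. All groups carry the label wild type, and triol without radiation was not among them. The labels give no time from irradiation to RNA. No vehicle is named for the triol cells, and 2 of their 3 libraries, replicates 2 and 3, carry a treatment label that places the last hydroxyl at another carbon than their titles do. Whether the replicates were separate cultures is not stated, so the p-values reflect variation among these libraries only, which could be technical.

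Libraries held 17230866 to 18944051 counts in triol-treated irradiated cells, 13879062 to 15192203 in irradiated cells and 14118475 to 17705424 in control cells. All 11 listed markers of microglia and macrophages had reads in every library, among them Csf1r and Cd68, although the markers of resting microglia P2ry12 and Tmem119 had only 6 to 14 and 16 to 26 reads per library. The summed level of these 11 genes was 1836 to 1873 RPM (reads per 1000000 counts) in triol-treated irradiated libraries and 1809.9 to 1877 RPM in irradiated libraries, lower than the 2371 to 2489 RPM of control libraries. Of 5 neuron markers 1, Syn1, had reads in every library, and the 5 summed to 21.5 to 22.5 RPM in triol-treated irradiated, 18.6 to 20.6 RPM in irradiated and 16.7 to 18.4 RPM in control libraries. The 4 fibroblast markers, 0 of them with reads in every library, summed to 1.103 to 1.79 RPM in triol-treated irradiated, 0.527 to 0.760 RPM in irradiated and 0 to 0.113 RPM in control libraries. The 4 astrocyte markers, 2 with reads in every library, summed to 1.51 to 2.06 RPM in triol-treated irradiated, 1.97 to 2.09 RPM in irradiated and 0.321 to 0.850 RPM in control libraries, and those of oligodendrocytes overlapped between the groups. The share of reads from the mitochondrial genome was 3.25% to 3.30% in triol-treated irradiated, 3.33% to 3.46% in irradiated and 3.49% to 3.64% in control libraries, with no overlap. The part of these differences in the results was not tested, and in bulk RNA fewer cells of a type and less RNA per cell cannot be told apart.

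Macroautophagy encloses cytoplasm in a membrane sac that closes and fuses with the lysosome. The ULK kinase complex starts it, a class III phosphatidylinositol 3-kinase marks the site, ATG9 vesicles and ATG2 supply lipid, and a pair of ubiquitin-like conjugation systems attach ATG8 proteins (LC3 and GABARAP) to the membrane. Cargo receptors bind ubiquitylated or other marked cargo with one part and ATG8 proteins with another. Microglia use the pathway to break down organelles, aggregates and engulfed material. Transcript levels alone measure neither the proteins nor the flow of cargo.

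The first comparison asked what irradiation changed. Single autophagy genes differed by small amounts in both directions, and the median of the members lay near 0. Of 34 members that passed the filter on low counts, 8 were higher and 7 were lower in irradiated than in control cells (edgeR quasi-likelihood test, Benjamini-Hochberg adjusted p below 0.05 over all 11295 genes tested). That is 44.1% of the members, against 44.3% of all genes tested, of which 22.1% were called higher and 22.2% lower. The median log2 fold change was 0.0026 over the members and 0.0067 over all genes, and the median absolute value was 0.12 for the members and 0.15 for all genes. The members' log2 fold changes ran from −0.42 for Wipi1 to 0.32 for Atg14. Among the 30 core genes 6 were higher and 6 lower, with a median of 0.0026. Of the 4 receptors tested 2 were higher and 1 lower, with a median of 0.02, and the fifth, Optn, had no read in any library. Libraries of the irradiated and control groups did not overlap for 19 of the 34 members, where the share over all genes was 50.7%.

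Among the receptors, those for ubiquitylated cargo moved in opposite directions with radiation: Sqstm1 and Tax1bp1 rose and Nbr1 fell. Sqstm1 encodes p62, which binds ubiquitin chains and is itself degraded with its cargo, and lies at chr11:50199366-50210827 on the minus strand (GRCm38, GENCODE M21, protein-coding). Its level in CPM (counts per 1000000, libraries scaled by TMM factors) was 1108, 1101 and 1132 in triol-treated irradiated libraries, 1082, 1116 and 1046 in irradiated libraries and 1008, 960.5 and 927 in control libraries. Every irradiated library, with or without triol, lay above every control library. Sqstm1 rose to 1081 ± 35.3 CPM in irradiated cells, against 965 ± 40.7 CPM in control cells (mean ± SD, n = 3 each; log2 fold change 0.16, SE 0.03, adjusted p = 2.1e-05 by edgeR). In triol-treated irradiated cells it was also higher than in control cells (log2 fold change 0.21, SE 0.03, adjusted p = 3.5e-07). Of its exonic bases, 17.3% overlap Mrnip on the other strand, and the strand setting of the counting is not known here.

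Tax1bp1, a receptor for ubiquitylated proteins with a role in damping NF-κB signalling, lies at chr6:52713729-52766780 on the plus strand. It had 382, 387 and 394 CPM in triol-treated irradiated libraries, 374, 368 and 366 CPM in irradiated libraries and 330.2, 336 and 337 CPM in control libraries. The 3 groups did not overlap, with the triol-treated libraries at the top and the control libraries at the bottom. Relative to control cells it rose in irradiated cells (log2 fold change 0.14, SE 0.03, adjusted p = 1.5e-04 by edgeR) and in triol-treated irradiated cells (log2 fold change 0.21, SE 0.03, adjusted p = 1.7e-07). The step between the irradiated groups was smaller, with a log2 fold change of 0.07 (95% interval 0.01 to 0.13) that missed the threshold after adjustment (adjusted p = 0.58 by edgeR).

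Nbr1 moved the other way. It encodes an evolutionarily older relative of p62 that shares its ubiquitin-binding layout and joins it in the same aggregates, and lies at chr11:101552149-101581951 on the plus strand. Its level was 154, 157 and 157 CPM in triol-treated irradiated libraries, 153, 152 and 144 CPM in irradiated libraries and 179, 181 and 187 CPM in control libraries, so all 6 irradiated libraries lay below all 3 control libraries. The fall with radiation was to 149.7 ± 4.91 CPM in irradiated cells, against 183 ± 3.94 CPM in control cells (log2 fold change −0.29, SE 0.04, adjusted p = 1.8e-08 by edgeR, n = 3 each), and triol-treated irradiated cells were lower than control cells too (log2 fold change −0.23, SE 0.04, adjusted p = 1.7e-06). The number of Sqstm1 reads per Nbr1 read, which does not depend on how libraries are scaled, was 7.03 to 7.20 in triol-treated irradiated libraries and 7.09 to 7.32 in irradiated libraries, against 4.96 to 5.62 in control libraries.

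Calcoco1, a receptor for the endoplasmic reticulum at chr15:102706777-102722178 on the minus strand, had 59.2, 58.8 and 63.4 CPM in triol-treated irradiated libraries, 57.8, 59.3 and 57.2 CPM in irradiated libraries and 62.7, 62.2 and 62.5 CPM in control libraries. The irradiated libraries lay below the control libraries, but the difference did not pass (log2 fold change −0.10, SE 0.05, adjusted p = 0.099 by edgeR), and triol-treated replicate 3 lay above all control libraries. Optn encodes optineurin, a receptor in the removal of damaged mitochondria and bacteria, and lies at chr2:5020642-5064051 on the minus strand. It had 0 reads in each of the 9 libraries, 0 of 144585407 counts, which allows a level of up to 0.0207 RPM over all libraries together (3 counts; counting error only). The reason for the 0 was not tested.

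**Figure D1:**
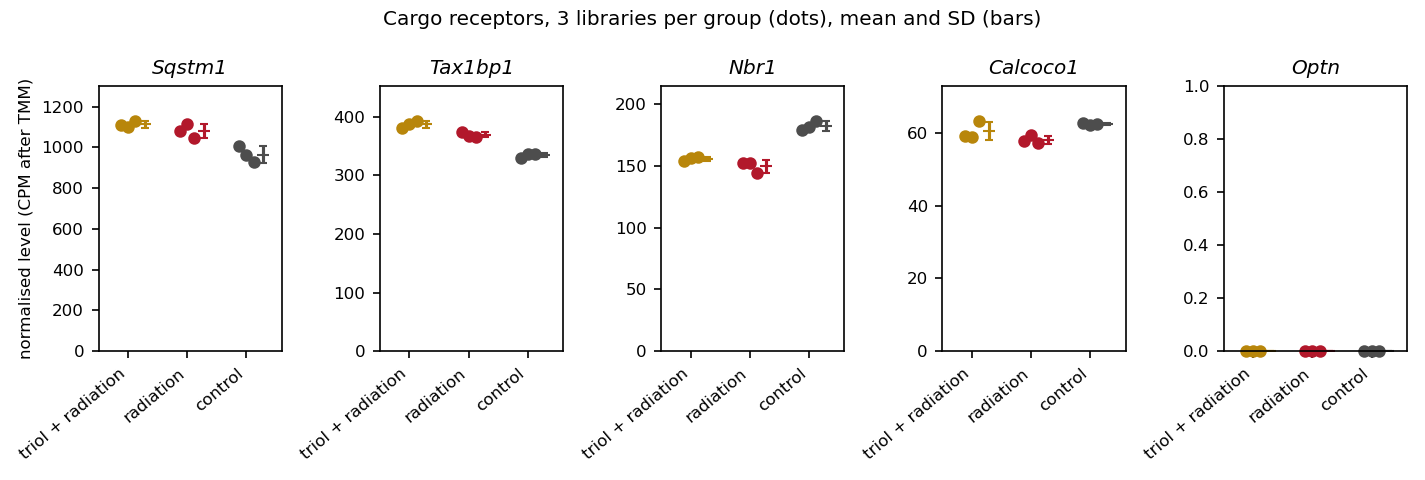
Normalised level (CPM after TMM, linear axes from 0, a scale per gene) of the 5 cargo receptor genes in triol-treated irradiated, irradiated and control libraries; dots are single libraries, bars the mean and SD of 3. Sqstm1 and Tax1bp1 sit above control in both irradiated groups, Nbr1 sits below it, and Optn is at 0 in all 9 libraries.

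The start regions of the 3 receptor genes that changed are shown, since Sqstm1 and Tax1bp1 rose while Nbr1 fell. Each is the stretch before a RefSeq start site (GRCm38.p6), up to 250 bases, without bases annotated as coding or untranslated in the gene itself or a neighbour, and reads 5′ to 3′ along the gene. It covers 62 bases for Sqstm1 (chr11:50210828-50210889, minus strand), 250 for Tax1bp1 (chr6:52713479-52713728, plus strand) and 151 for Nbr1 (chr11:101551956-101552106, plus strand). Tax1bp1 and Nbr1 have 2 listed starts each, and the one nearer to the start of the gene in GENCODE is shown.
Sqstm1: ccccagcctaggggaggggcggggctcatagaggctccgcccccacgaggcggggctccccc
Tax1bp1: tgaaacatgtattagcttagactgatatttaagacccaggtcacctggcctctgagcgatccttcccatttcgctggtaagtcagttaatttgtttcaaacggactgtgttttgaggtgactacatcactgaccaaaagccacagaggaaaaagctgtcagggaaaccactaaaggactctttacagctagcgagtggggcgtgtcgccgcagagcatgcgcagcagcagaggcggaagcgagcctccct
Nbr1: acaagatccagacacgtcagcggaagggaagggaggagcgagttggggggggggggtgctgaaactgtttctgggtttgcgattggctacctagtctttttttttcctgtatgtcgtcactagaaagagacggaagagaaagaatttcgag
A gene of the opposite strand begins within 250 bases of the start of both Sqstm1 and Nbr1.

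Windows of 300 bases, 250 before and 50 after the start, were listed for 29 of the 35 members and were searched on both strands for 5 short motifs. CACGTG, the core of the E-box bound by TFEB, was found for 4 of the 29, Atg3, Atg5, Atg7 and Atg14, and for 8.09% of all 27025 genes with a window. TGACNNNGC, the antioxidant response element bound by NRF2, was found for another 4, Ulk2, Atg13, Map1lc3b and Tax1bp1, and for 14% of all genes. The interferon-stimulated response element, GAAA then any 2 bases then GAAA, was found for Nbr1 at its other start, and for 3.99% of all genes. GTAAACA, a FOXO site, and TGATGNAA, an ATF4 site, were found for 4.05% and 4.51% of all genes and for 0 members. Stretches of 60 bases are shown for the members that changed with radiation and whose match lies before the start, with the match in capitals. They are Tax1bp1 at its other, downstream start (chr6:52713935-52713994, plus strand), Atg7 (chr6:114670937-114670996, plus strand, a start inside the gene in GENCODE), Atg13 (chr2:91710783-91710842, minus strand, match on the opposite strand of the gene) and Ulk2 (chr11:61855093-61855152, minus strand).
Tax1bp1: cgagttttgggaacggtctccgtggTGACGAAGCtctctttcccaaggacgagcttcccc
Atg7: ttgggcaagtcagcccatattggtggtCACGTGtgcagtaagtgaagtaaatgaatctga
Atg13: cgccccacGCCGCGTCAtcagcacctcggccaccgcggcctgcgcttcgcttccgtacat
Ulk2: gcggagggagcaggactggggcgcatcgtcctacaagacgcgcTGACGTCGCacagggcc
Of the members with the NRF2 motif, Tax1bp1 and Map1lc3b rose with radiation while Ulk2 and Atg13 fell. Of those with the E-box, Atg14 rose, Atg7 fell, and Atg3 and Atg5 did not pass. A match says only that the letters are present.

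The proteins of the ATG8 family coat the sac and hold the receptors. Of its 5 genes 2 rose and 1 fell with radiation, where 22.1% of all genes rose and 22.2% fell. Map1lc3b, which encodes LC3B, the common marker of autophagosomes, lies at chr8:121590361-121598760 on the plus strand. It had 259.6, 260.1 and 259.8 CPM in triol-treated irradiated libraries, 255, 267 and 258 CPM in irradiated libraries and 230.1, 238 and 225 CPM in control libraries, with no overlap between either irradiated group and control. It rose in irradiated against control cells (log2 fold change 0.17, SE 0.03, adjusted p = 5.0e-05 by edgeR), and the value for triol-treated irradiated against control cells was 0.17 (SE 0.03, adjusted p = 4.6e-05). Gabarapl1, a GABARAP relative at chr6:129533160-129542346 on the plus strand, rose by more (log2 fold change 0.28, SE 0.06, adjusted p = 2.6e-04 by edgeR). Its levels were 51.9, 56.8 and 49.9 CPM in triol-treated irradiated libraries, 58.9, 51.5 and 52.2 CPM in irradiated libraries and 45, 43.2 and 46.1 CPM in control libraries, and all 3 control libraries were lowest. Triol-treated irradiated cells had 0.24 against control (SE 0.06, adjusted p = 0.0011). Of the exonic bases of Gabarapl1, 28.3% overlap a gene of the other strand, 1700101I11Rik.

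Gabarap itself, at chr11:69991143-69994951 on the plus strand, fell slightly. It had 265, 271 and 262 CPM in triol-treated irradiated libraries, 254, 276 and 266 CPM in irradiated libraries and 297, 291 and 273 CPM in control libraries. Irradiated replicate 2 lay above control replicate 3, so these 2 groups overlapped, while all triol-treated libraries lay below all control libraries. In irradiated against control cells the test gave a log2 fold change −0.11, SE 0.04, adjusted p = 0.0078 by edgeR, a call lost without irradiated replicate 1 (−0.09, adjusted p = 0.068). In triol-treated irradiated against control cells it gave a log2 fold change −0.11, SE 0.03, adjusted p = 0.0094. There were 0.961 to 0.990 Map1lc3b reads per Gabarap read in triol-treated irradiated libraries and 0.966 to 1.003 in irradiated libraries, against 0.775 to 0.824 in control libraries. Map1lc3a (log2 fold change 0.10, 95% interval −0.06 to 0.25) and Gabarapl2 (0.02, interval −0.09 to 0.14) did not pass with radiation. In stretches of 50 bases the 5 family members shared no sequence with each other, while 23.1% of those of Gabarapl1 (1700101I11Rik), 12.2% of those of Gabarapl2 and 6.01% of those of Map1lc3b also occur in transcripts of other genes.

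In the conjugation systems that load ATG8 proteins onto the membrane, 1 of 7 genes rose and 1 fell. Of all genes 22.1% rose and 22.2% fell. Atg12, at chr18:46730144-46741580 on the minus strand, encodes the ubiquitin-like protein that is joined to ATG5. It had 63.4, 70.0 and 68.8 CPM in triol-treated irradiated libraries, 64.7, 68 and 60.1 CPM in irradiated libraries and 53.6, 52.2 and 53.7 CPM in control libraries, and both irradiated groups lay wholly above control. The rise was 0.27 in irradiated cells (SE 0.05, edgeR adjusted p = 7.4e-05) and 0.34 in triol-treated irradiated cells (SE 0.05, adjusted p = 1.1e-06), each against control on the log2 scale. Atg7, at chr6:114643097-114860614 on the plus strand, encodes the E1-like enzyme that activates both ATG12 and ATG8 proteins. It had 64, 65.3 and 68.9 CPM in triol-treated irradiated libraries, 62.7, 65.8 and 64.9 CPM in irradiated libraries and 76.8, 77.1 and 69.1 CPM in control libraries, with control replicate 3 only just above the highest triol-treated library. It fell in irradiated cells (log2 fold change −0.21, SE 0.05, adjusted p = 0.001 by edgeR) and in triol-treated irradiated cells (log2 fold change −0.17, SE 0.05, adjusted p = 0.0053) against control. The partner of ATG12, Atg5, the E2-like genes Atg3 and Atg10 and the scaffold genes Atg16l1 and Atg16l2 did not pass with radiation, with log2 fold changes of −0.02, −0.12, −0.02, 0.02 and −0.13. Atg3 was the closest of these to the threshold, with adjusted p = 0.057 by edgeR. It passed without irradiated replicate 2 (−0.14, adjusted p = 0.041) and with no filter on low counts (−0.13, adjusted p = 0.048).

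The ATG4 proteases cut ATG8 proteins to ready them for the membrane and to free them from it. Atg4c, at chr4:99193934-99259787 on the plus strand, was lower in irradiated than in control cells (log2 fold change −0.28, SE 0.09, adjusted p = 0.011 by edgeR), but its libraries overlapped. They held 23.9, 25.3 and 27.2 CPM in triol-treated irradiated cells, 26.2, 20.3 and 24.8 CPM in irradiated cells and 24.7, 29.1 and 32.8 CPM in control cells. The call was lost without control replicate 3 (log2 fold change −0.19, adjusted p = 0.093) or irradiated replicate 2 (−0.19, adjusted p = 0.096). In triol-treated irradiated cells Atg4c had −0.18 against control (adjusted p = 0.09). It passed there without control replicate 1 (−0.28, adjusted p = 0.0076) and with no filter on low counts (−0.20, adjusted p = 0.029). Atg4a (−0.13), Atg4b (0.03) and Atg4d (−0.06) did not pass with radiation, and Atg4a passed in triol-treated irradiated against control cells once triol-treated replicate 2 was left out (−0.24, adjusted p = 0.015 by edgeR, against −0.15 with it). Of the 50-base stretches of Atg4a, 51.2% recur in transcripts of Atg4a-ps or Syt6, so its counts are uncertain.

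Among the 5 genes of the ULK complex 1 rose and 2 fell, where 22.1% of all genes rose and 22.2% fell. Rb1cc1 encodes FIP200, the scaffold of the complex, and lies at chr1:6206197-6276648 on the plus strand. It had 148, 151 and 151 CPM in triol-treated irradiated libraries, 143, 147 and 148 CPM in irradiated libraries and 133, 136 and 132 CPM in control libraries, so that neither irradiated group overlapped control. The rise was 0.12 in irradiated cells (SE 0.04, edgeR adjusted p = 0.006) and 0.16 in triol-treated irradiated cells (SE 0.04, adjusted p = 3.1e-04) against control on the log2 scale. Ulk2, one of the paired kinases, lies at chr11:61775649-61855073 on the minus strand and fell. Its libraries held 44, 39.3 and 41.1 CPM in triol-treated irradiated cells, 39, 40.4 and 45.6 CPM in irradiated cells and 49.5, 50.3 and 51.5 CPM in control cells, and all control libraries were highest. Against control, irradiated cells had a log2 fold change −0.27, SE 0.06, adjusted p = 3.9e-04 by edgeR, and triol-treated irradiated cells a log2 fold change −0.28, SE 0.06, adjusted p = 2.0e-04. The other kinase, Ulk1, had 0.11 (95% interval −0.03 to 0.24) and did not pass, although its lowest irradiated library lay just above its highest control library.

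Atg13, which links the kinases to FIP200, lies at chr2:91674618-91710576 on the minus strand. It had 372, 391 and 413 CPM in triol-treated irradiated libraries, 387, 374 and 359 CPM in irradiated libraries and 412, 411 and 416 CPM in control libraries. The irradiated libraries were all below control (log2 fold change −0.14, SE 0.03, adjusted p = 5.2e-04 by edgeR), while triol-treated replicate 3 lay within the control range and that group did not pass against control (log2 fold change −0.07, SE 0.03, adjusted p = 0.07). Atg13 passed there without that library (−0.12, adjusted p = 0.0077) and also with no filter on low counts (−0.09, adjusted p = 0.020). The difference between triol-treated irradiated and irradiated cells was 0.07 (95% interval 0.00 to 0.14, adjusted p = 0.64), so a return towards control was not shown. Atg101, the partner of ATG13, did not pass (0.13 with radiation).

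Of the 3 genes of the class III lipid kinase complex, Atg14 changed with radiation, where 44.3% of all genes did. It encodes the subunit that directs the kinase to autophagy and lies at chr14:47540893-47570649 on the minus strand. Its levels were 26.8, 24.5 and 31 CPM in triol-treated irradiated libraries, 29, 31 and 28.4 CPM in irradiated libraries and 21.4, 23 and 26.4 CPM in control libraries. It rose in irradiated cells (log2 fold change 0.32, SE 0.08, adjusted p = 0.0018 by edgeR), the largest rise among the 34 members in that comparison, with all irradiated libraries above control. Against control the triol-treated libraries overlapped and the rise was 0.22 (SE 0.08, adjusted p = 0.027), which DESeq2 did not call (adjusted p = 0.10) and which was lost without control replicate 1 (log2 fold change 0.15, adjusted p = 0.18), control replicate 2 (0.19, adjusted p = 0.10) or triol-treated replicate 3 (0.11, adjusted p = 0.33). Becn1, the regulatory subunit beclin 1, and Pik3c3, the catalytic subunit, had log2 fold changes of 0.01 and 0.09 with radiation and did not pass. Pik3c3 passed in triol-treated irradiated against control cells without triol-treated replicate 2 (0.14, adjusted p = 0.044), against 0.11 with it. It also passed there with upper quartile scaling (0.14, adjusted p = 0.022) and with only the compared groups (0.12, adjusted p = 0.049). Of the exonic bases of Becn1, 43.9% overlap Cntd1 on the other strand.

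Of the 6 genes that bring lipid to the growing sac 1 was higher and 1 lower, where 22.1% and 22.2% of all genes were. Atg2a, one of a pair of lipid transfer proteins, lies at chr19:6241668-6262335 on the plus strand and rose with radiation (log2 fold change 0.21, SE 0.05, adjusted p = 2.7e-04 by edgeR). It had 106, 109 and 122 CPM in triol-treated irradiated libraries, 112, 119 and 115 CPM in irradiated libraries and 103, 99.9 and 96.4 CPM in control libraries, with control at the bottom. The value for triol-treated irradiated against control cells was 0.17 (SE 0.05, adjusted p = 0.0022), which became 0.10 (adjusted p = 0.092) without triol-treated replicate 3. Its paralog Atg2b had 0.08 with radiation and missed the threshold (adjusted p = 0.067).

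Wipi1, which binds the lipid mark of the kinase, lies at chr11:109573331-109611967 on the minus strand and showed the largest fall of the 34 members with radiation (log2 fold change −0.42, SE 0.15, adjusted p = 0.025 by edgeR). It was also among the least read, with 102, 103 and 115 reads in triol-treated irradiated libraries, 82, 70 and 77 reads in irradiated libraries and 82, 153 and 92 reads in control libraries. In CPM these are 5.89, 5.86 and 6.04 in triol-treated irradiated libraries, 5.61, 5 and 5.03 in irradiated libraries and 5.92, 8.76 and 5.99 in control libraries, and control replicate 2 stood far above the others. Without that library the value was −0.19 (adjusted p = 0.39), and the call was also lost with DESeq2 (adjusted p = 0.092) and without irradiated replicate 2 (adjusted p = 0.063) or irradiated replicate 3 (adjusted p = 0.068). Wipi2, the more abundant paralog, had −0.0019 (95% interval −0.09 to 0.08). Atg9a and Atg9b, which encode the lipid scramblases of the ATG9 vesicles, had −0.09 and −0.15 and did not pass. Of the exonic bases of Atg9a, 31.8% also belong to Gm29253, a gene model of the same strand, so its count is uncertain.

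**Figure D2:**
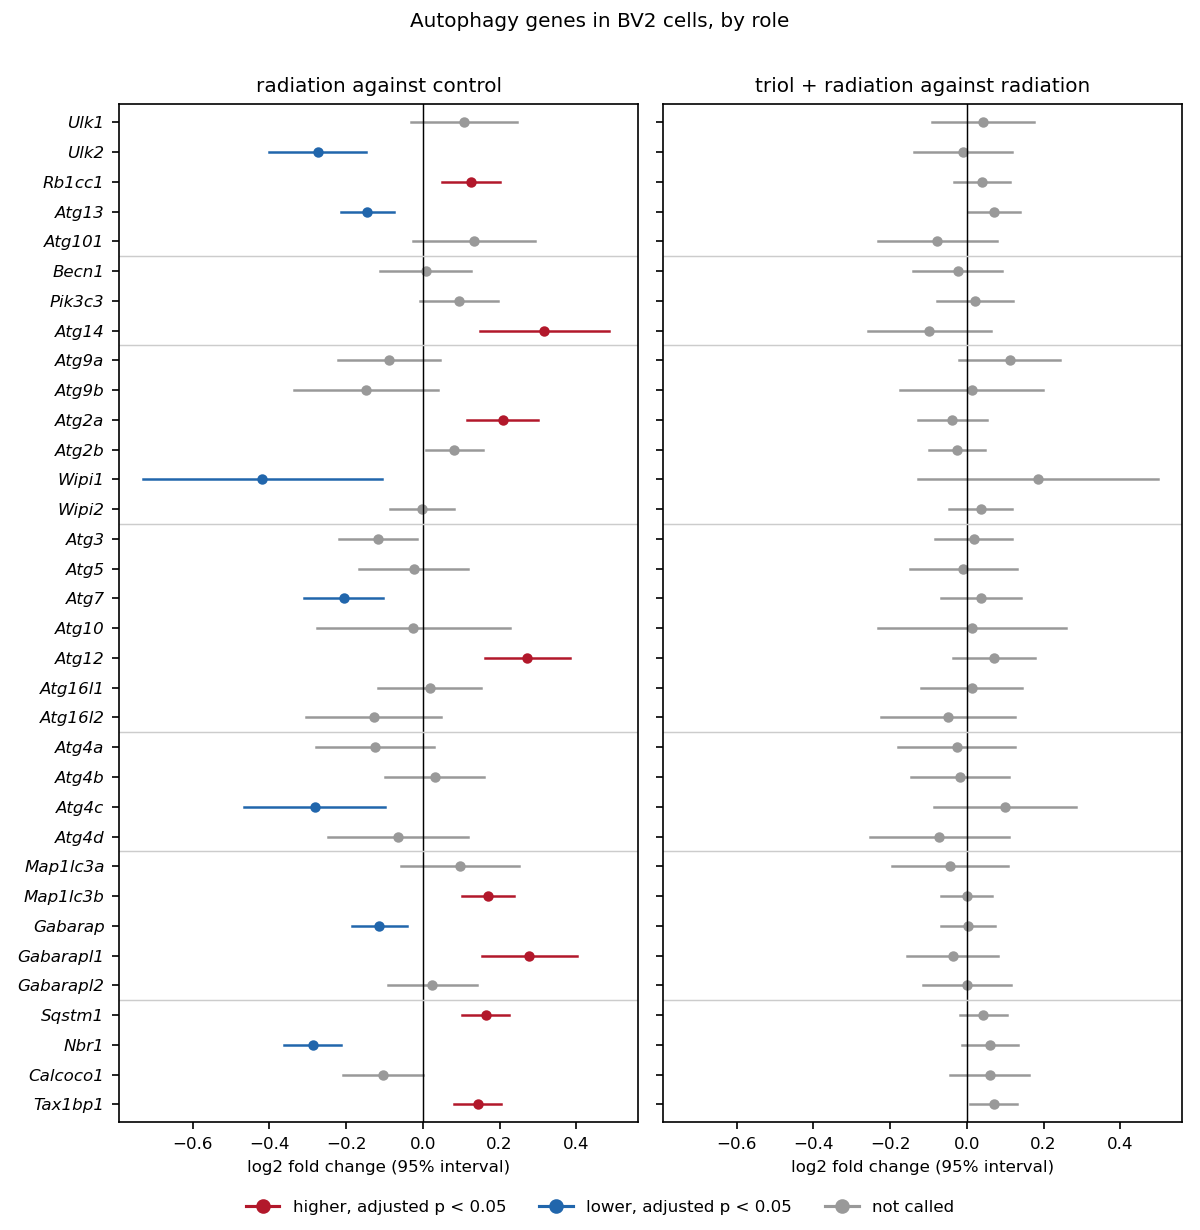
Log2 fold changes with 95% intervals of the 34 tested autophagy genes, in blocks by role (ULK complex, class III kinase complex, lipid supply, conjugation, ATG4 proteases, ATG8 family, cargo receptors), for irradiated against control cells (left) and triol-treated irradiated against irradiated cells (right); red and blue mark adjusted p below 0.05. On the left 8 genes are higher and 7 lower, with both colours in 5 of the 7 blocks, where 22.1% and 22.2% of all genes were. On the right no gene is coloured.

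Compared as RPKM, the CPM per kilobase of exon, Sqstm1 stood above every other member. Its level was 332 ± 4.85 RPKM in triol-treated irradiated cells, 322 ± 10.5 RPKM in irradiated cells and 288 ± 12.1 RPKM in control cells (mean ± SD, n = 3 each). Gabarap followed with 144 ± 2.23 RPKM in triol-treated irradiated, 144 ± 5.93 RPKM in irradiated and 156 ± 6.69 RPKM in control cells. Atg13 had 89.8 ± 4.62 RPKM in triol-treated irradiated, 85.5 ± 3.2 RPKM in irradiated and 94.5 ± 0.593 RPKM in control cells. Within the receptors, Tax1bp1 (33.5 ± 0.365 RPKM in control cells) lay above Nbr1 (26.6 ± 0.573 RPKM) and Calcoco1 (10.9 ± 0.0477 RPKM). Within the ULK complex Atg13 exceeded its kinase partners Ulk2 (8.44 ± 0.164 RPKM in control cells) and Ulk1 (4.88 ± 0.16 RPKM) by over 10 times. The lowest levels were those of Atg4d (2.28 ± 0.107 RPKM in control cells), Atg16l2 (2.16 ± 0.154 RPKM) and Wipi1 (1.56 ± 0.367 RPKM), and Atg4d and Atg16l2 differed by less than their spread. These lengths join all annotated exons of a gene, so genes with many little-used exons read low.

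Within the ATG8 family Gabarap made up 56.3% ± 0.364 of the summed RPKM in triol-treated irradiated cells and 55.9% ± 1.17 in irradiated cells, against 60.3% ± 0.565 in control cells (mean ± SD, n = 3 each). Map1lc3b made up 13.5% ± 0.169 in triol-treated irradiated cells and 13.4% ± 0.0628 in irradiated cells, against 11.9% ± 0.280 in control cells. Among the receptors Sqstm1 held 82.2% ± 0.133 of the summed RPKM in triol-treated irradiated cells and 82.4% ± 0.316 in irradiated cells, against 80.2% ± 0.860 in control cells. The share of Nbr1 was 5.62% ± 0.0696 in triol-treated irradiated cells and 5.57% ± 0.0793 in irradiated cells, against 7.42% ± 0.387 in control cells. Summed over the 5 receptor genes the level was 1717 ± 24.7 CPM in triol-treated irradiated cells, 1658 ± 41.9 CPM in irradiated cells and 1544 ± 33.7 CPM in control cells, most of it Sqstm1. The 30 core genes together had 2299.9 ± 33.9 CPM in triol-treated irradiated cells, 2277 ± 16.6 CPM in irradiated cells and 2270.4 ± 22.4 CPM in control cells, and those ranges overlapped. These sums are descriptions and were not tested.

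**Figure D3:**
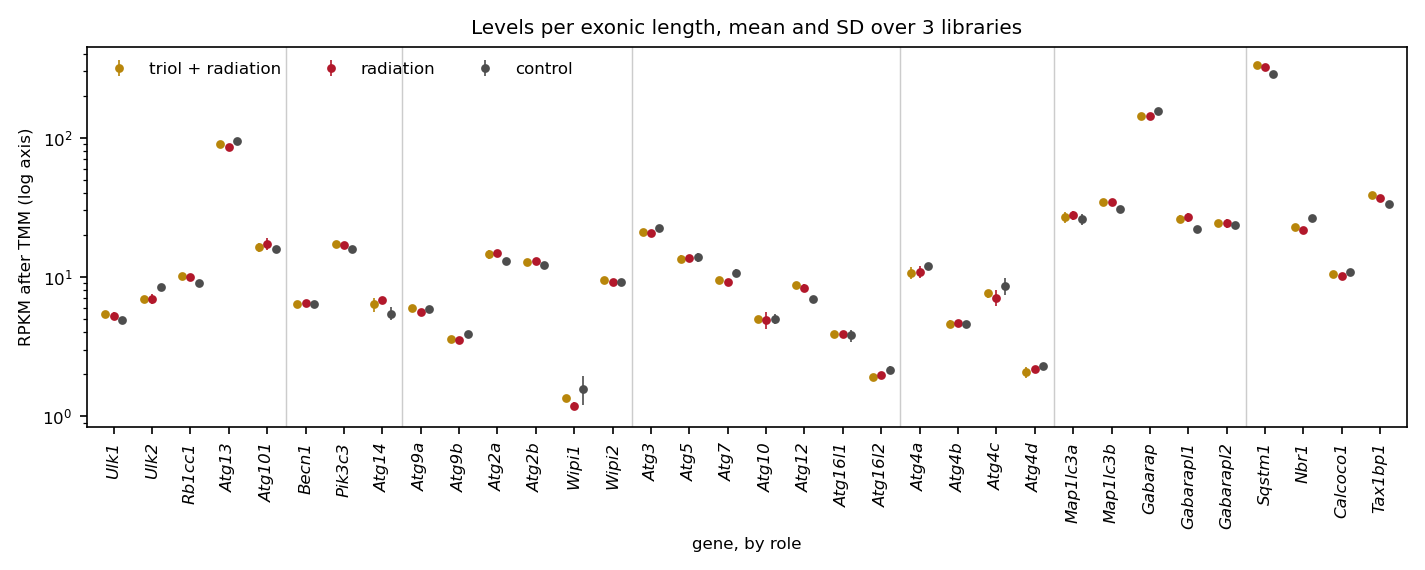
Level per exonic length (RPKM after TMM, log axis) of the 34 tested members, in blocks by role; points are means and bars SDs of 3 triol-treated irradiated, 3 irradiated or 3 control libraries. Sqstm1, Gabarap and Atg13 are the highest, and for most genes the 3 groups lie closer together than neighbouring genes do.

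The second comparison asked whether triol given before irradiation changed these genes in irradiated cells. By edgeR 0 of the 34 members were called in triol-treated irradiated against irradiated cells, where 0.106% of all genes were. DESeq2 also called 0, and gave an adjusted p to only 9 of the 34. The median log2 fold change was 0.01 for the members and 0.0016 for all genes. At an unadjusted p under 0.05 there were 2 members, Atg13 (0.07, adjusted p = 0.64 by edgeR) and Tax1bp1 (0.07, adjusted p = 0.58), beside 7.66% of all genes. Libraries of these groups did not overlap for 5 members, Atg9a, Wipi1, Wipi2, Nbr1 and Tax1bp1, each higher with triol, where the share over all genes was 13.2%. All 4 tested receptors had log2 fold changes above 0, from 0.04 to 0.07, and none passed. Values above 0 were found for 20 of the 34 members and for 5737 of the 11295 genes tested.

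The intervals limit the size of a difference between the triol-treated irradiated and the irradiated libraries. They rest on variation among these libraries, which could be technical. For 33 of the 34 members the 95% interval lay within 0.3 of 0 on the log2 scale, a 1.23-fold change, as it did for 72.5% of all genes tested. The exception was Wipi1 (0.19, interval −0.13 to 0.50), which had 70 to 153 reads per library. For Map1lc3b the interval was −0.07 to 0.07, for Gabarap −0.07 to 0.07 and for Sqstm1 −0.02 to 0.10. Of 8 hepatocyte markers 1, Alb, had reads in every library. The 8 summed to 7.97 to 8.71 RPM in triol-treated irradiated, 0.461 to 1.86 RPM in irradiated and 0.283 to 2.09 RPM in control libraries. Their part in these values, and in those of triol-treated irradiated against control cells, was not tested.

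Against control cells, triol-treated irradiated cells showed 8 members higher and 4 lower, 35.3% of those tested, where edgeR called 43.3% of all genes (21.5% higher and 21.7% lower). The control libraries are those of the first comparison, so the 2 comparisons are not independent. The receptors gave 2 higher and 1 lower, and the core genes 6 higher and 3 lower. Wipi1 and Atg4c had log2 fold changes of −0.23 and −0.18 there and did not pass, and the differences between the irradiated groups for these genes, 0.19 and 0.10, did not pass either. A further fit kept only triol-treated replicate 1 of the triol libraries, the one whose labels name a single compound. There the median log2 fold change of the members was −0.012 against control and 0.0041 against irradiated cells. Over all genes it was −0.0060 and −0.0026. This alternative was chosen after the data were seen, and the lone library is assumed to vary like the other groups.

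**Figure D4:**
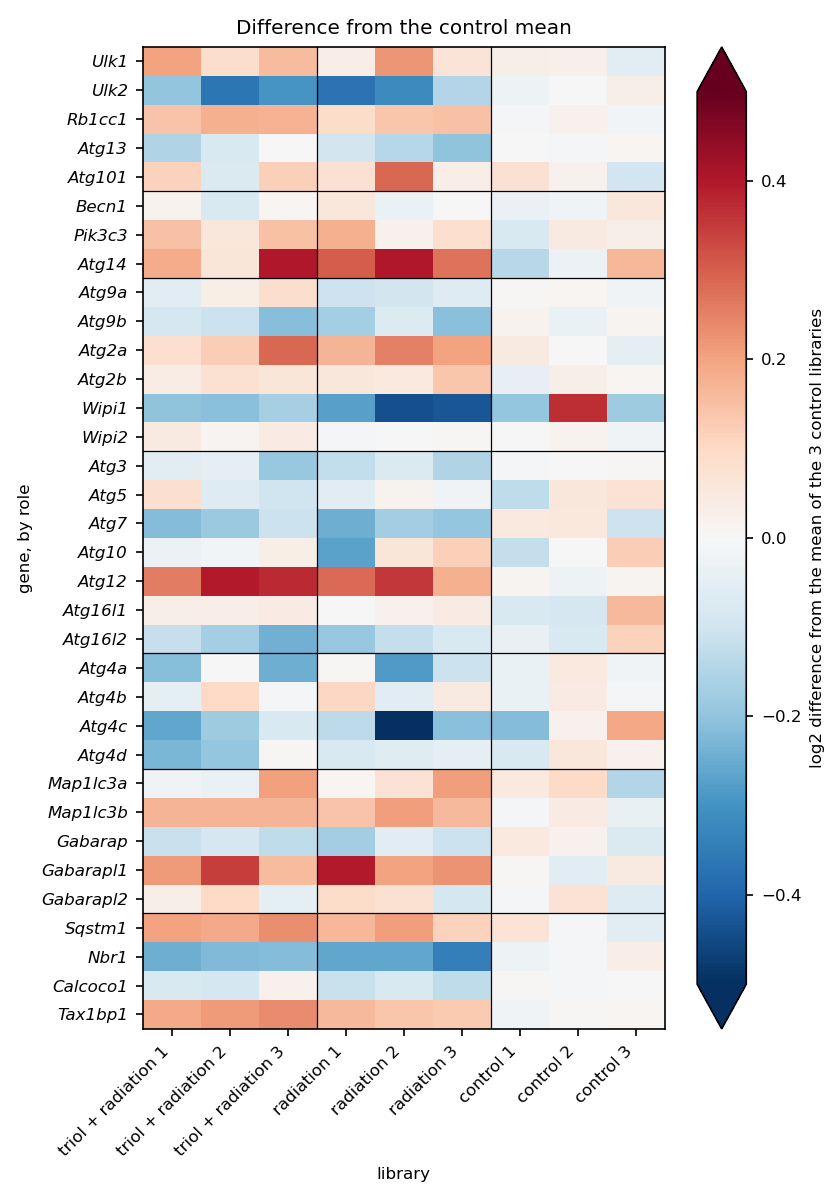
Log2 difference of each of the 34 tested members from the mean of the 3 control libraries, for each triol-treated irradiated, irradiated and control library (columns) and gene by role (rows); red is higher and blue lower. Sqstm1, Tax1bp1, Map1lc3b and Atg12 are red and Nbr1 and Ulk2 blue in all 6 irradiated libraries, and Wipi1 is red only in control replicate 2.

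The wider pathway was read from 7 lists of 80 further genes, chosen with earlier results of these data known. Of 77 tested, 6 were higher and 34 lower in irradiated than in control cells, and the median log2 fold change was −0.09. Over all genes 22.1% were higher and 22.2% lower, the shares beside which the counts of each list below stand. The number lower was 28 with upper quartile scaling and 29 to 34 with a single library left out.

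Of 23 genes of kinases and nutrient sensing 2 rose and 8 fell, and 6 to 9 fell with a single library left out. Rragd, which encodes a small GTPase that brings the kinase mTOR to the lysosome, had 33, 35 and 39 reads in triol-treated irradiated libraries, 29, 32 and 32 reads in irradiated libraries and 9, 9 and 3 reads in control libraries. Its rise in irradiated cells (log2 fold change 2.21, SE 0.35, adjusted p = 1.4e-06 by edgeR) was the largest change in any of the lists, at a low level. Rheb, the GTPase that activates mTOR, rose by 0.19 on the log2 scale. Deptor, an inhibitor of mTOR, fell to 71.2 ± 3.33 CPM in irradiated cells, against 88.6 ± 6.24 CPM in control cells (−0.32 on the log2 scale). Prkag1, a subunit of the energy sensor AMPK, had −0.25 (adjusted p = 0.032 by edgeR). It did not pass with upper quartile scaling (adjusted p = 0.057) or DESeq2 (0.10). Nor did it pass without control replicate 2 (−0.16, adjusted p = 0.25) or irradiated replicate 1 (−0.18, adjusted p = 0.18). Of the exonic bases of Prkag1, 43.7% overlap B130046B21Rik on the other strand.

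Of 9 transcription factors known to act on autophagy genes 6 fell and 0 rose, where 22.2% of all genes fell. Only 4 fell with upper quartile scaling or without control replicate 1, when Tfe3, a relative of Tfeb, and Atf4, a factor of the stress response, lost their calls. Tfe3 had −0.13 (adjusted p = 0.038), against adjusted p = 0.10 with that scaling, 0.21 without that library, 0.080 with DESeq2, 0.056 without control replicate 2 and 0.20 without irradiated replicate 1. Atf4 had −0.10 (adjusted p = 0.016), against 0.096 with that scaling, 0.12 without control replicate 1 and 0.063 without irradiated replicate 3. Tfeb, which drives genes of lysosomes and autophagy, fell to 15.7 ± 0.917 CPM in irradiated cells, against 21.3 ± 1.6 CPM in control cells (log2 fold change −0.44, SE 0.09, adjusted p = 6.1e-05 by edgeR), and triol-treated irradiated cells had 15 ± 0.927 CPM. Xbp1, a factor of the unfolded protein response, fell by 0.37. Among 11 partners of the lipid kinase complex and further lipid genes 1 rose and 3 fell, and 2 fell with upper quartile scaling or without control replicate 1, control replicate 2 or irradiated replicate 1, when Ambra1, a partner of beclin 1, was lost (adjusted p between 0.052 and 0.086). Bcl2, which binds beclin 1 and also guards against cell death, fell to 18.8 ± 1.72 CPM in irradiated cells, against 31.3 ± 1.18 CPM in control cells (log2 fold change −0.73, SE 0.08, adjusted p = 2.7e-10 by edgeR). Zfyve1, which marks the membrane where sacs form, had −0.15, and Wdr45b, a relative of the WIPI genes, rose by 0.23.

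Genes for fusion of the autophagosome with the lysosome fell in 9 of 14 cases and rose in 1, with a median of −0.13, where 22.2% of all genes fell and 22.1% rose. With a single library left out 7 to 9 fell. Vamp8, a SNARE of the lysosome whose libraries overlapped between the groups, had −0.19 (adjusted p = 0.035) and did not pass with upper quartile scaling (0.077), with DESeq2 (0.085) or without any 1 of control replicate 1, control replicate 2, irradiated replicate 2 or irradiated replicate 3 (0.052 to 0.20). Tecpr1, which tethers autophagosomes to lysosomes, fell to 170.3 ± 3.26 CPM in irradiated cells, against 223 ± 6.65 CPM in control cells (log2 fold change −0.39, SE 0.04, adjusted p = 1.1e-11 by edgeR). Vps39, a subunit of the HOPS tethering complex, fell by 0.30, and the SNARE gene Ykt6 rose by 0.20. Of 13 receptors for mitochondria and endoplasmic reticulum 7 fell and 1 rose, with a median of −0.12, and 5 to 7 fell with a single library left out. Pink1, the kinase that marks damaged mitochondria, fell to 25 ± 0.583 CPM in irradiated cells, against 35 ± 2.32 CPM in control cells (log2 fold change −0.48, SE 0.07, adjusted p = 4.4e-07 by edgeR), Bnip3, another mitochondrial receptor, had −0.29, and Sec62, a receptor for the endoplasmic reticulum, rose by 0.16, which did not pass without control replicate 2 (0.13, adjusted p = 0.059). Of the exonic bases of Bnip3, 22.3% overlap Gm45507 on the other strand. Of 4 further adaptors Ncoa4, the receptor for ferritin, fell by 0.16, with adjusted p = 2.3e-04. In chaperone-mediated autophagy, which carries single proteins through the lysosomal membrane, the gene of the receptor, Lamp2, had −0.05 (adjusted p = 0.14) and that of the chaperone, Hspa8, had −0.06 (adjusted p = 0.075). Neither passed, and Hspa8 passed with DESeq2 (adjusted p = 0.028), with no filter on low counts (0.039) and without control replicate 1 (0.018) or irradiated replicate 3 (0.044). Lamp1, listed beside them, is a lysosomal membrane protein and not a part of that process, and rose by 0.10 (adjusted p = 0.003). In triol-treated irradiated against irradiated cells 0 of the 77 were called by edgeR, where 0.106% of all genes were. An unadjusted p under 0.05 was seen for 6 of them, beside 7.66% of all genes. DESeq2 also called 0, but many of these genes got no adjusted p there. It gave an adjusted p to at most 6 genes of any list, and to 0 of the 11 partners and further lipid genes.

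**Figure D5:**
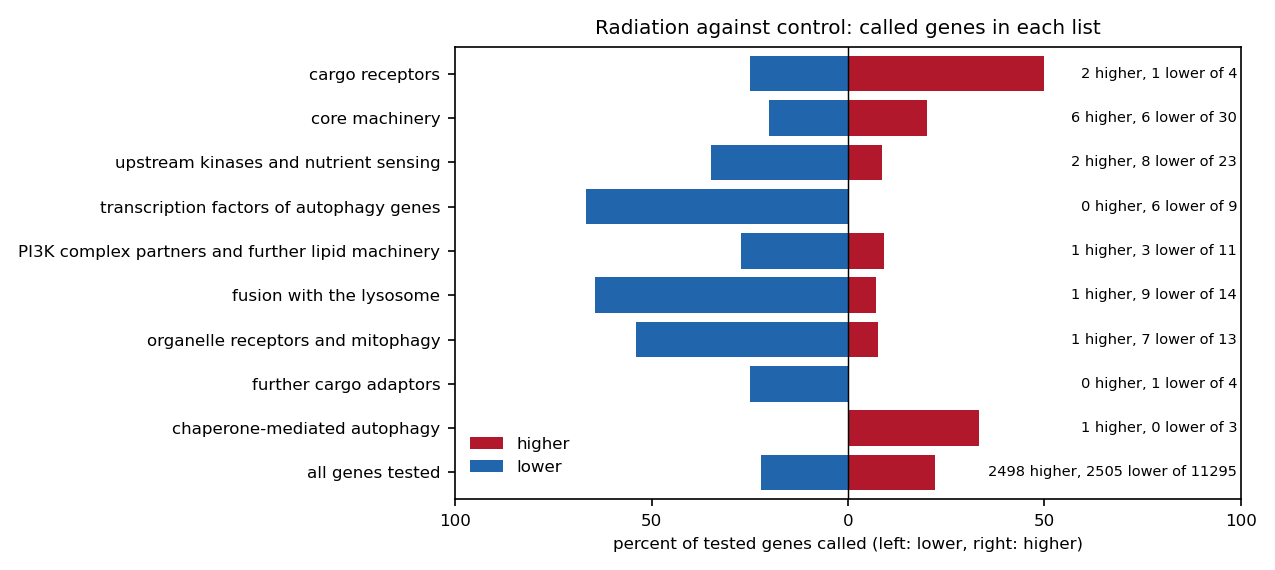
Percent of tested genes called lower (left of 0) and higher (right of 0) in irradiated against control cells by edgeR, for the cargo receptors, the core machinery, 7 lists of the wider pathway and all genes tested. The core machinery has 6 higher and 6 lower of 30, close to the 22.1% and 22.2% of all genes, while 9 of 14 fusion genes and 6 of 9 transcription factors are lower.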

How the data were processed

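The authors deposited raw read counts, a whole number for each gene in each library. The submitters' processing notes name fastp 0.18.0, FastQC, STAR 2.7.1a and featureCounts of Subread 1.6.3, and build GRCm38. Libraries were made with a NEBNext Ultra RNA kit, per the labels' protocols. No source used here gives the strand setting, the annotation release or the treatment of multiply matching reads. All 21951 identifiers and symbols were found in GENCODE M21 (GRCm38), which gave coordinates (1-based), exonic lengths and overlaps. Promoter sequences came from RefSeq (GRCm38.p6).

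Titles gave the groups and replicate numbers. The filter filterByExpr of edgeR kept 11295 genes. Tests were two-sided quasi-likelihood F tests (edgeR 4.0.16, R 4.3.3) with TMM factors, robust dispersion, 1 fit over all 9 libraries (6 residual degrees of freedom) and Benjamini-Hochberg adjustment over all tested genes at 0.05. Every adjusted p in the text is from this test unless DESeq2 (1.42.0) is named. SEs and 95% intervals come from the F statistic. Tested members had 70 to 21557 reads per library.

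Values of every library were set to be given for all receptors and for members that passed by 0.3 or more on the log2 scale in either direction, and members that passed with less are shown likewise. Of the other lists, the 2 genes that passed with the largest change in each direction are named. Members and lists were chosen with earlier results of these data known. Alternatives were upper quartile scaling, DESeq2, no filter, only the compared groups, the replicate number as a block and each library left out. Nothing in the labels pairs the replicate numbers. The deviations of same-numbered libraries from their group means correlated between −0.06 and 0.07 over 9 pairs. Such values cannot show whether same-numbered libraries were handled together.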

Additional observations from a re-analysis of the deposited data

How the results depend on the processing

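Among members, 15 of 34 were called in irradiated against control cells, beside 5003 of 11295 genes. There were 17 with upper quartile scaling (5035 of 11295 genes) and 16 without a filter on low counts (5165 of 16729). DESeq2 called 14 (4215 of 13539), and the fit of only the compared groups 15 (4770 of 11027). With a library left out 14 to 15 members were called, and 4266 to 4841 of 11433 to 11502 genes. The replicate block, for numbers that the labels do not pair, gave 15, 0 and 12 member calls in the 3 comparisons, as many as without it. It called 5005, 22 and 4876 genes. In triol-treated irradiated against irradiated cells 0 members were called under each alternative that kept 2 or more triol libraries, beside 6 to 36 genes. Against control, triol-treated irradiated cells had 12 members called, 11 to 14 under the alternatives that kept 2 or more triol libraries and 7 (4 higher) with triol-treated replicate 1 alone, where fewer libraries carry the test. Over all genes that comparison had 4886 of 11295 called. Under the alternatives that kept 2 or more triol libraries it had from 4084 of 13539 to 5214 of 16729. The 7 members rest on a lone triol library and were not set against all genes. The lower count is therefore not shown to be particular to autophagy genes. Of 1165 values of single members with an adjusted p under alternatives, 1133 kept their side of the threshold. Of the rest 18 lost a call, 14 gained one and 0 called values changed sign. A further 25 values without an adjusted p, all of DESeq2, were left out. Upper quartile scaling moved the median log2 fold change of all genes in irradiated against control cells to 0.04, from 0.0067, and added Pik3c3 (0.12, adjusted p = 0.043) and Atg2b (0.11, adjusted p = 0.012). The cause of the other changes was not tested. Depth limits Wipi1, Atg10 and Atg9b most, with 70 to 263 reads per library.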
